A study of Mus musculus with 17 samples.

Results

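Islets that lacked Men1 in their beta cells were compared with islets of Cre-carrying control mice, on 3 arrays labelled Men1flf, RIP-Cre and 3 labelled RIP-Cre. These are 6 of the 17 arrays of the study, and they were taken from the sample titles. All mice were 2 months old and untreated. The control mice carried the RIP-Cre transgene, with no other allele named in the labels, and the Men1 RIP-Cre mice carried the same transgene with floxed Men1. Of the other arrays, 3 are wild type (wt) islets without the transgene, 4 are Rbp2flf, RIP-Cre islets and 4 are islets with both Men1 and Rbp2 floxed, called the double knockout here. Whole islets were collected, and their RNA was measured as log2 intensity on whole-transcript arrays. The repeats of a group are not said to be separate animals, so the p-values rest on array-to-array spread, part of which may be technical.

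Men1 encodes menin, a nuclear scaffold protein that joins the MLL methyltransferases and helps place methyl marks on lysine 4 of histone H3 at active genes. Inherited loss of MEN1 in people causes tumours of endocrine glands, insulinomas among them, and mice without Men1 in beta cells develop insulinomas as adults. Rbp2, whose gene symbol is Kdm5a, is a demethylase that removes the same marks. RIP is the promoter of the rat insulin gene, which is active in beta cells, so the alpha, delta, PP, endothelial and other cells of an islet keep their Men1 gene. In whole islets, fewer cells of a type and less RNA per cell cannot be told apart.

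Loss of Men1 went with changes across much of the transcriptome: of the 19938 genes tested, 2722 were higher and 3289 were lower in Men1 RIP-Cre islets under both normalizations used. Here a gene was called when its adjusted p from limma was under 0.05 (Benjamini-Hochberg over all genes), and a gene is said to have risen or fallen only when it was called in the same direction on the values as deposited and after cyclic loess normalization, which removes shifts that depend on a gene's level. By this rule 13.7% of all genes rose and 16.5% fell, 30.1% in all, and the counts for gene lists below are read against these shares. The lists were chosen with earlier results of these data known, so an excess over these shares is not separate support for a theme. As deposited alone, 10660 genes were called (53.5%), 3126 higher (15.7%) and 7534 lower (37.8%). After cyclic loess 7188 were called (36.1%), 3517 higher and 3671 lower, so the excess of lower calls was smaller after cyclic loess than on the deposited scale. Among the genes called both ways, 370 rose and 162 fell by 2-fold or more. The 3 arrays of one group did not overlap the 3 of the other for 12646 genes, or 63.4%.

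The level of a gene went with the sign of its change. The 75th percentile of the log2 intensities lay between 8.92 and 8.95 on all 17 arrays, whereas the median over all probe sets was 7.51 to 7.54 on the Men1 RIP-Cre arrays and 7.62 to 7.84 on the RIP-Cre arrays, with no overlap. The median change over all genes was -0.23 on the log2 scale as deposited and -0.05 after cyclic loess. In the 10% of genes with the lowest mean level the median change was -0.43, and in the 10% with the highest it was 0.20, whereas after cyclic loess these medians were -0.14 and 0.00. With the genes ranked by level and cut into 4 equal bins, 1.6% rose and 9.69% fell in the lowest bin, 7.54% and 17.2% in the next, 19.8% and 22.7% in the third and 25.7% and 16.4% in the highest.

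**Figure D1:**
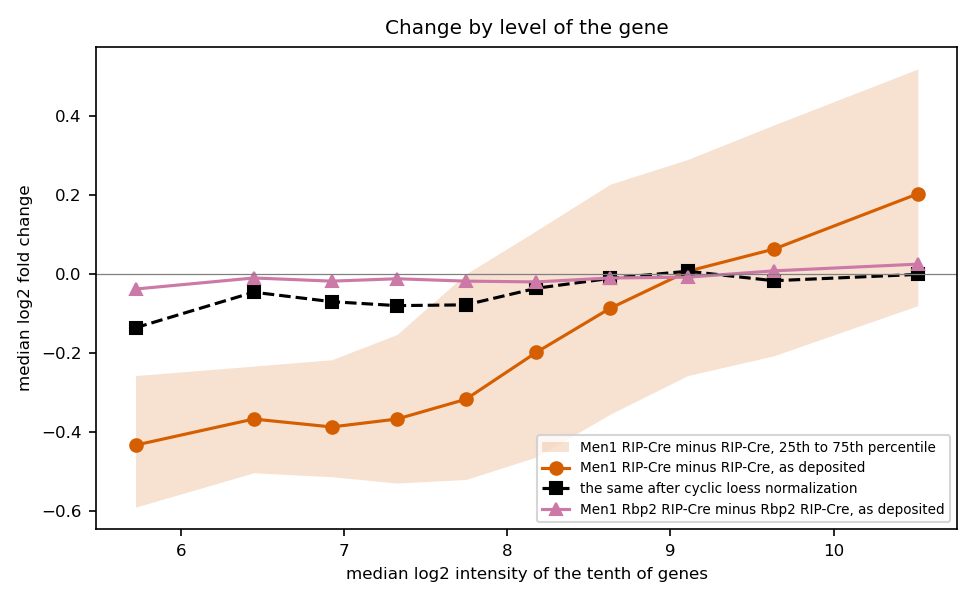
Median log2 fold change in each of 10 equal bins of genes by mean level (y axis) against the median log2 intensity of that bin (x axis), for Men1 RIP-Cre minus RIP-Cre as deposited (circles, with the 25th to 75th percentile shaded), the same after cyclic loess (squares), and the double knockout minus Rbp2 RIP-Cre (triangles). The deposited medians run from -0.43 in the lowest bin to 0.20 in the highest, and those of the double knockout from -0.04 to 0.03.

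1 control array carried much of the count. RIP-Cre replicate 3 had the highest median of the 6 arrays, 7.84, and the highest levels of the acinar enzyme Ctrb1 among the RIP-Cre arrays (9.20, 10.94 and 12.37 for replicates 1 to 3). Without it 6174 genes were called as deposited, and 2090 rose and 1856 fell by both normalizations. Without Men1 RIP-Cre replicate 1, which had the highest Ctrb1 of its group (12.80, 10.56 and 11.27), 2149 genes fell. With each array's median as a covariate, 462 genes were called higher and 432 lower as deposited. Since the medians of the 2 groups do not overlap, that covariate and the loss of Men1 cannot be told apart. With it at most 8 members of any gene list below were called higher and at most 5 lower. In lists where 0 to 2 members rose or fell, that count moved by at most 2 when any 1 of the 6 arrays was left out. Genes named below as having risen or fallen passed both normalizations on all arrays. As deposited, they also stayed called when any 1 of the 6 arrays was left out, except where stated. Staying called after cyclic loess was not required there. Clock, for example, was not called both ways without Men1 RIP-Cre replicate 3.

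Men1 RNA was lower on every array with the floxed allele. On the RIP-Cre arrays Men1 measured 9.31, 9.49 and 9.38, and on the Men1 RIP-Cre arrays 8.14, 8.43 and 8.42. The groups did not overlap, and Men1 fell by 1.06 ± 0.11 on the log2 scale (± is the standard error of the limma fit throughout; adjusted p = 3.08e-05), which leaves the control level at 2.09 times the knockout level in whole-islet RNA. Kdm5a, the gene of Rbp2, measured 9.37, 9.31 and 9.09 in RIP-Cre and 9.50, 9.39 and 9.44 in Men1 RIP-Cre islets, a difference of 0.19 ± 0.12 that missed the threshold (adjusted p = 0.175 from limma). On the arrays labelled as floxed for Rbp2, Kdm5a RNA was not called lower either: the Rbp2 RIP-Cre arrays measured 9.18, 9.02, 9.01 and 8.95, a difference from RIP-Cre of -0.22 (limma adjusted p = 0.148), and the double knockout arrays 9.39, 9.07, 9.39 and 9.10, a difference of -0.02 (0.896). Where the probes lie relative to the floxed part of Kdm5a is not given in the sources used here, so loss of Rbp2 rests on the labels wherever these 2 groups are used.

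Lrrc55, Slitrk6 and Tceal6 rose most of the 15 genes named for the strongest rises, which leave out predicted, olfactory, vomeronasal and small RNA genes. Lrrc55, an auxiliary subunit of large-conductance potassium channels, measured 7.03, 6.93 and 7.32 in RIP-Cre islets and 10.06, 9.56 and 9.71 in Men1 RIP-Cre islets. It rose by 2.68 ± 0.15, or 6.42-fold (limma adjusted p = 4.55e-08), and the 3 wt arrays, at 6.85 to 7.15, lay with the RIP-Cre arrays. Slitrk6, a neuronal adhesion receptor, lay between 7.85 and 8.80 in the controls and between 10.85 and 11.08 without Men1, a rise of 2.59 ± 0.30. Tceal6, of the family of transcription elongation factor homologues, rose by 2.39 ± 0.15 from 6.31, 6.31 and 5.89 to 8.83, 8.57 and 8.29. For each of the 3 genes the lowest knockout array lay above the highest control array by more than 1 log2 unit.

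The other 12 genes of those 15 have varied roles. Scd1, which desaturates fatty acids, measured 7.39, 7.24 and 7.32 in RIP-Cre and 9.38, 9.07 and 10.16 in Men1 RIP-Cre islets, a rise of 2.22 ± 0.31. Dnajb9, a chaperone of the endoplasmic reticulum (ER), rose by 1.97 ± 0.40 and Uqcrb, a subunit of respiratory complex III, by 1.97 ± 0.38, with its other probe sets at 1.77 and 2.10. Cd63, a membrane protein of late endosomes and granules, rose by 1.95 ± 0.29, and Cst3, a secreted inhibitor of lysosomal cysteine proteases, by 1.90 ± 0.28, with controls between 10.52 and 11.32 and knockouts between 12.61 and 12.84. The defensin gene Defb1 rose by 2.28 ± 0.25, the imprinted neuronatin gene Nnat by 1.94 ± 0.33 and Fam107a, which encodes an actin-associated protein, by 1.97 ± 0.15. The remaining genes were Rbm12b2, Usp51, Fam171b and Ei24, with changes between 1.87 and 2.16.

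Of the 15 genes named for the strongest falls by the same rule, H2-Eb1, Eps8l2 and Prom1 fell most. Eps8l2, an actin regulator of the Eps8 family, measured 10.10, 10.07 and 10.19 in RIP-Cre islets and 7.76, 8.04 and 8.22 in Men1 RIP-Cre islets. It fell by 2.11 ± 0.17 (limma adjusted p = 1.65e-06) and the lowest control array lay well above the highest knockout array. H2-Eb1, a beta chain of MHC class II that presents antigen on immune cells, was at 9.68, 9.29 and 9.35 in the controls and 7.27, 7.19 and 7.24 in the knockouts, a fall of 2.21 ± 0.40. Prom1, an apical membrane protein of epithelial cells, fell by 2.00 ± 0.26, from 9.41, 9.79 and 9.29 to 7.09, 8.31 and 7.10. In Prom1 the knockout arrays differ more among themselves than in the other leading genes, and replicate 2 is the high one.

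The other genes of those 15 have varied roles. The guanylate cyclase receptor Gucy2c fell by 1.76 ± 0.24, the lipid kinase Pik3c2g by 1.68 ± 0.15, and Grb10, an adaptor that dampens insulin and IGF receptor signalling, by 1.60 ± 0.13 from 9.52, 9.08 and 9.44 to 7.65, 7.70 and 7.88. Gem, a small GTPase that inhibits voltage-gated calcium channels, went from 9.53, 9.60 and 9.15 to 7.67, 7.92 and 7.87, a fall of 1.61 ± 0.18. Among channels and transporters, the sodium channel gene Scn3a fell by 1.62 ± 0.18, the cation channel gene Trpm3 by 1.53 ± 0.12 and the potassium-chloride cotransporter gene Slc12a7 by 1.54 ± 0.17. Apela, a peptide ligand of the apelin receptor, fell by 1.60 ± 0.23, Tsga10 by 1.55 ± 0.17, the transcription factor gene Sim1 by 1.49 ± 0.35 and the noncoding Snhg11 by 1.69 ± 0.26, with its other probe set at -0.68. Slc28a2b, a nucleoside transporter gene, is the exception among the 30 leading genes: its control values were 7.0, 7.41 and 9.04 against 6.03, 6.28 and 6.55, and its difference of -1.53 was -0.92 without RIP-Cre replicate 3 (limma adjusted p = 0.103) and -1.40 without Men1 RIP-Cre replicate 1 (0.0514). Against wt in place of RIP-Cre, 29 of the 30 leading genes were called, all but Slc28a2b. Of all 19938 genes, 10481 were called against wt as deposited. The Men1 RIP-Cre arrays are the same in both, so this is not separate support.

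**Figure D2:**
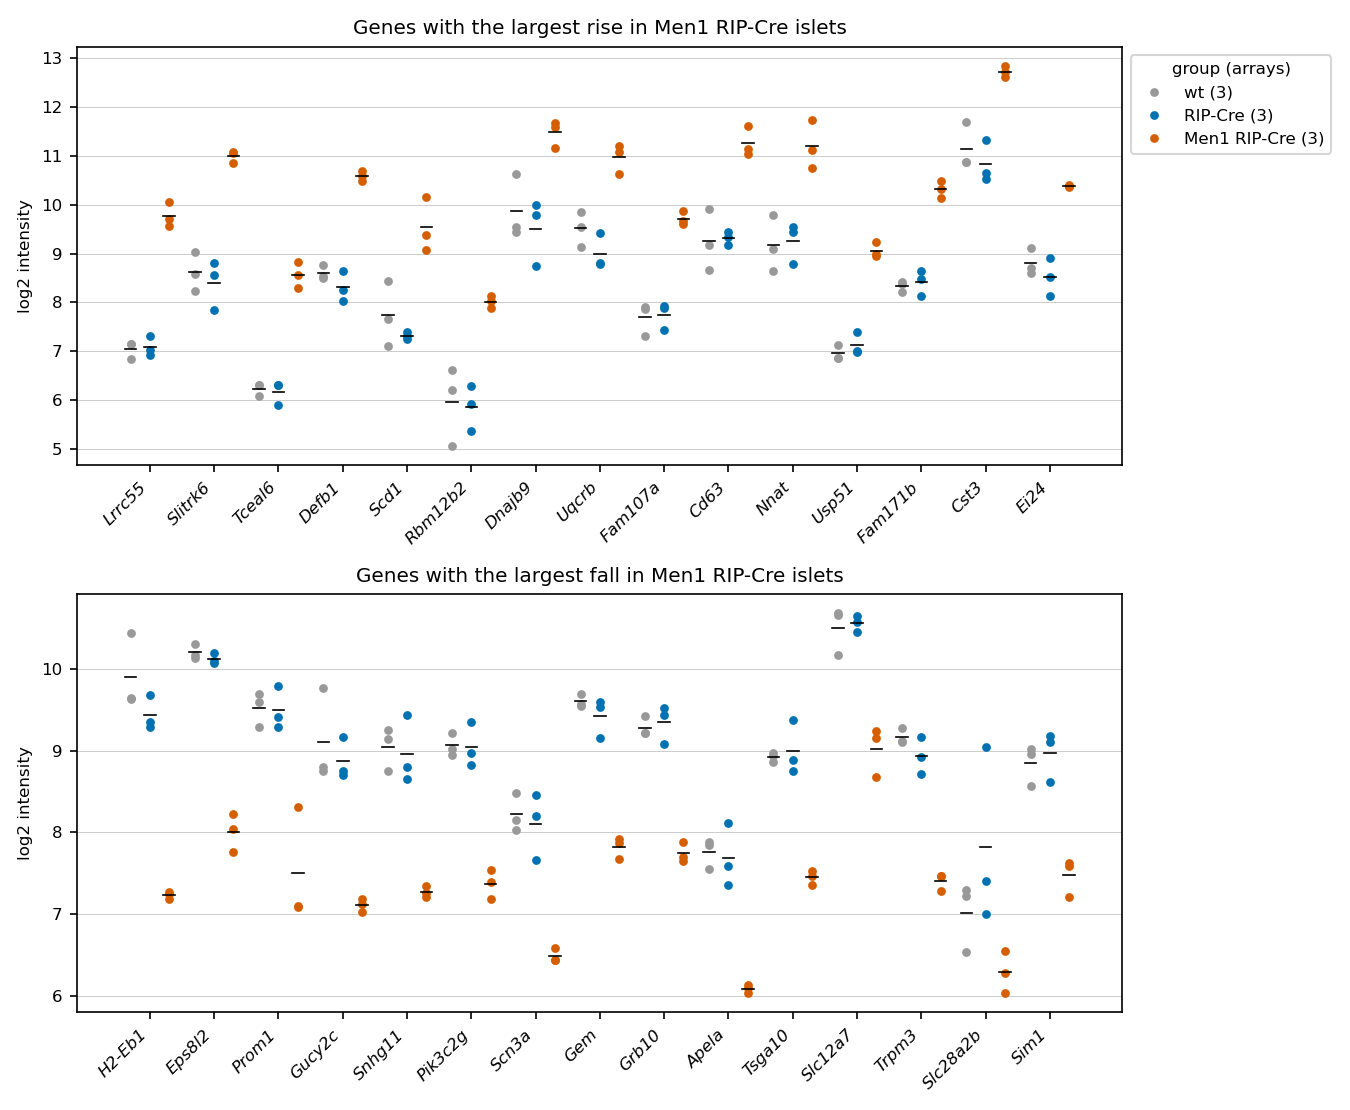
Log2 intensity (y axis) on each of the 3 wt, 3 RIP-Cre and 3 Men1 RIP-Cre arrays for the 15 genes with the largest rise and the 15 with the largest fall (x axis), with the mean of each group as a line. The smallest rise shown is 1.87 and the smallest fall is -1.49. Absence of overlap between the RIP-Cre and Men1 RIP-Cre arrays was required of all 30 by the naming rule, and it held for 63.4% of all genes.

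Loss of Men1 was measured a second time on 8 other arrays, all labelled as floxed for Rbp2: the 4 double knockout arrays against the 4 Rbp2 RIP-Cre arrays. The 2 comparisons share no array. Both were taken from one fit of all 17 arrays, so they share each gene's estimate of spread, and cyclic loess also used all arrays. Most of the changes of the first comparison were smaller there. In the second comparison 113 genes rose and 114 fell by both normalizations (1.14% of all genes). Of the genes that changed in the first, 76 rose and 83 fell in both (0.381% and 0.416% of all genes tested), which is 2.65% of the 6011 genes of the first comparison and 70.0% of the 227 of the second, and 4 changed in opposite directions. Among the 6011 genes, 83.7% had the same sign in the second comparison as deposited and 82.4% after cyclic loess, against 66.8% and 66.4% of all genes. The median ratio of the second change to the first was 0.20 as deposited and 0.22 after cyclic loess, while the median standard errors were alike, 0.13 and 0.12. Across the 6011 genes, which are not independent replicates, the changes correlated with r = 0.69, against 0.489 across all genes tested. The difference of the 2 changes was itself called for 675 genes as deposited (3.39%) and for 396 by both normalizations (1.99%), 384 of them among the 6011, and 383 of these were smaller or of opposite sign in the second comparison. The 6011 genes were chosen by their change in the first comparison, which also enters the ratio and the difference. A smaller second change is therefore partly built into the choice. The median of that difference over all genes, second minus first, was 0.20 as deposited and 0.04 after cyclic loess. Without RIP-Cre replicate 3 the genes that changed in both numbered 187, against 159 with it.

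**Figure D3:**
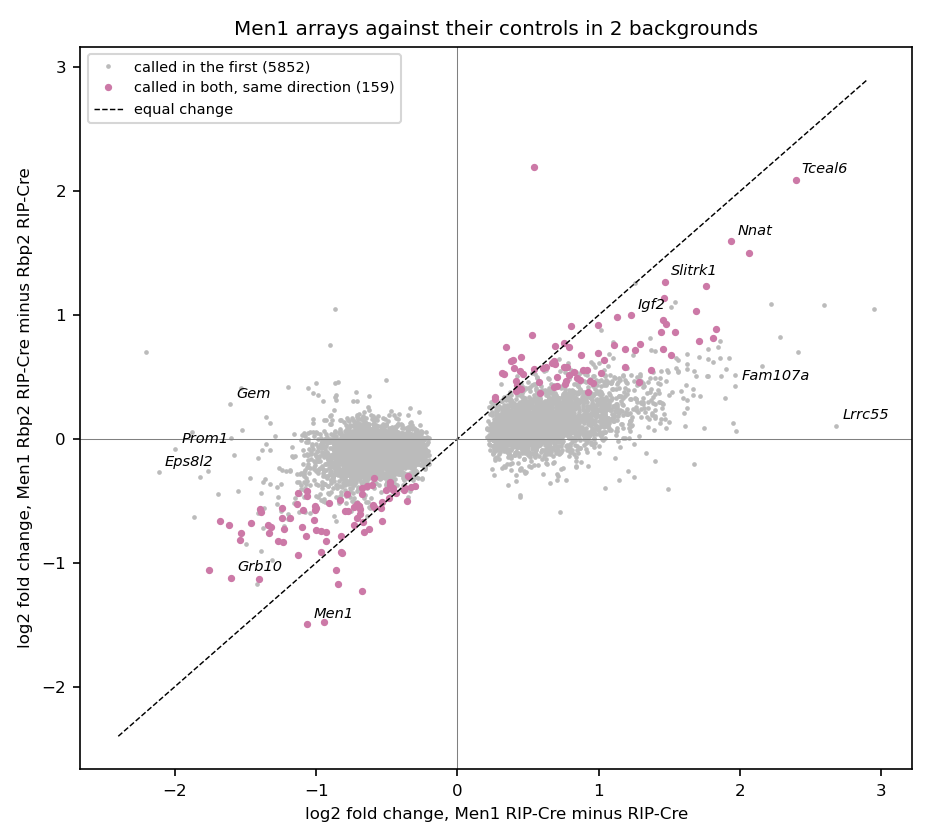
Log2 fold change in the double knockout minus Rbp2 RIP-Cre (y axis) against that in Men1 RIP-Cre minus RIP-Cre (x axis) for the 6011 genes called both ways in the first comparison, with the 159 called in the same direction in both in pink. Most points lie nearer to the horizontal axis than to the line of equal change, with a median ratio of 0.20, and Tceal6, Nnat, Slitrk1 and Men1 lie near or beyond that line.

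Among the genes that rose most in both comparisons were genes of neurons and a growth factor gene. Tceal6 measured 6.29, 6.04, 5.80 and 6.13 in Rbp2 RIP-Cre islets and 8.12, 8.06, 8.21 and 8.25 in the double knockout, a rise of 2.10 ± 0.13 beside 2.39 in the first comparison. Nnat rose by 1.60 ± 0.28 there, with Rbp2 RIP-Cre arrays between 8.90 and 9.55 and double knockout arrays between 10.04 and 11.28. Slitrk1, a neuronal adhesion receptor that shapes neurites, measured 7.23, 6.80 and 7.50 in RIP-Cre and 8.64, 8.63 and 8.66 in Men1 RIP-Cre islets, a rise of 1.47 ± 0.18, and it rose by 1.27 ± 0.16 in the double knockout. Its values in the 2 groups without Men1, 8.63 to 8.66 and 8.33 to 8.94, overlap. The growth factor gene Igf2, imprinted and normally low after birth, went from 8.34, 8.64 and 8.24 to 9.86, 9.63 and 9.42 (1.23 ± 0.14) and rose by 1.00 ± 0.12 in the second comparison. Also in this group were Kirrel3os, a noncoding transcript antisense to Kirrel3 (1.76 and 1.23), the receptor phosphatase gene Ptprs (1.69 and 1.03), the neuronal GTPase gene Rit2 (1.46 and 1.14), the calcium sensor gene Vsnl1 (1.47 and 0.93), the clathrin adaptor subunit gene Ap1s2 (1.46 and 0.96) and Plppr5 (1.13 and 0.98). Whether the labelling of these arrays keeps strand is not given in the sources used here, so Kirrel3os may share signal with Kirrel3.

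The genes that fell most in both comparisons have varied roles too. Rasgrf2, an exchange factor that activates Ras, measured 9.03, 8.14 and 8.78 in RIP-Cre and 6.99, 7.34 and 7.4 in Men1 RIP-Cre islets, a fall of 1.41 ± 0.22, and fell by 1.13 ± 0.19 in the double knockout. Grb10 lay between 9.25 and 9.44 in Rbp2 RIP-Cre and between 8.0 and 8.50 in double knockout islets, a fall of 1.12 ± 0.12 beside 1.60. Men1 itself fell by 1.5 ± 0.10 there, from 10.24, 10.05, 10.11 and 10.09 to 8.87, 8.54, 8.64 and 8.46. The controls of the second comparison thus started higher, and Men1 was 0.73 above RIP-Cre in the Rbp2 RIP-Cre islets (limma adjusted p = 0.00359). Gucy2c (-1.76 and -1.05), the oxytocin receptor gene Oxtr (-1.13 and -0.94), the sarcoglycan gene Sgcd (-0.94 and -1.48), Scel (-0.97 and -0.91), the neuronal calcium-binding protein gene Necab2 (-0.86 and -1.06), Otoa (-0.85 and -1.17) and the junction protein gene Igsf5 (-1.23 and -0.83) fell in both. For these 20 genes the arrays of the 2 groups did not overlap in either comparison, against 63.4% of all genes in the first and 7.11% in the second, which the rule favours. All 20 were called with wt in place of RIP-Cre, as were 10481 of all 19938 genes as deposited, on the same Men1 RIP-Cre arrays.

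**Figure D4:**
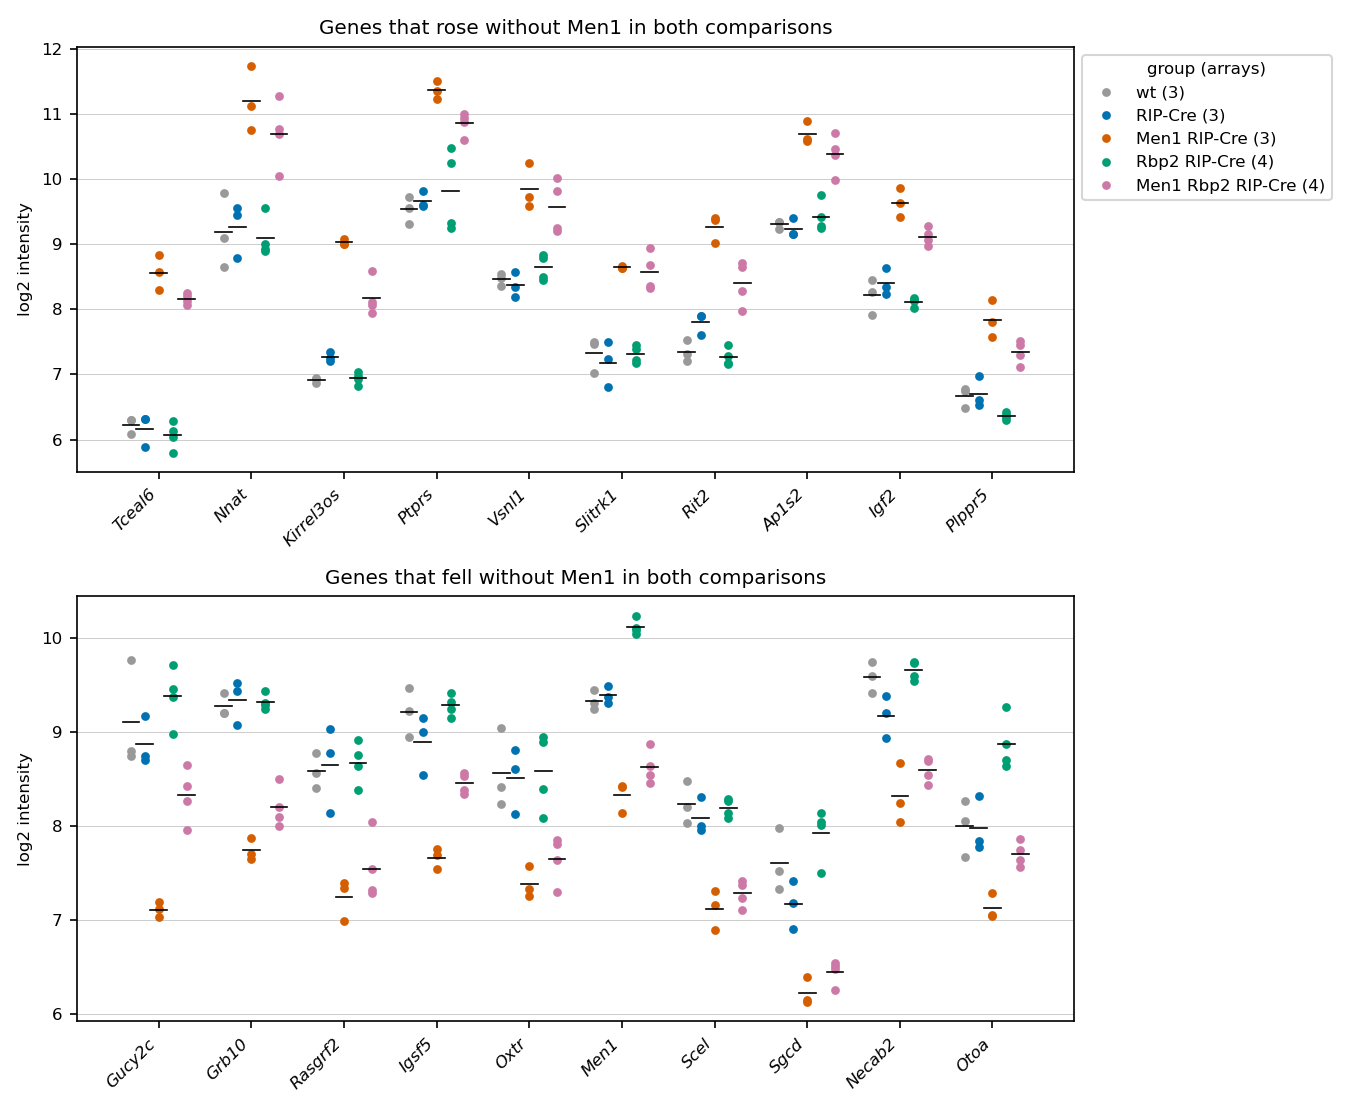
Log2 intensity (y axis) on all 17 arrays, by group, for the 10 genes that rose most and the 10 that fell most in both comparisons (x axis), with group means as lines. Tceal6 lies at 8.29 to 8.83 in Men1 RIP-Cre and 8.06 to 8.25 in double knockout islets and below 6.40 in the 3 groups with Men1.

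Other leading genes changed only weakly in the double knockout, and the difference was tested. Lrrc55 stayed at 6.80 to 7.08 in Rbp2 RIP-Cre and 6.90 to 7.33 in the double knockout, a change of 0.11 ± 0.13, and the difference from the first comparison was -2.58 ± 0.19 (limma adjusted p = 6.41e-06). Fam107a changed by 0.43 ± 0.13 there, with a difference of -1.54 ± 0.20 (0.00197). Eps8l2 measured 9.93 to 10.01 in Rbp2 RIP-Cre and 9.32 to 10.14 in the double knockout, which overlap, and its difference was 1.85 ± 0.22 (0.00111). Prom1 was at 9.20 to 9.93 and 9.27 to 9.45, with a difference of 1.92 ± 0.34 (0.0199). Gem and H2-Eb1 were already low on the arrays labelled Rbp2 RIP-Cre: Gem lay at 7.36 to 7.87 in Rbp2 RIP-Cre and 7.52 to 8.25 in the double knockout, and H2-Eb1 at 7.27 to 8.62 and 7.42 to 9.18, against 9.15 or more on every RIP-Cre array. Of the 30 leading genes, 8 rose or fell in both comparisons, 26 had the same sign and 17 had a called difference between the comparisons as deposited. Of the 6011 genes, 2.65% changed in both and 83.7% had the same sign as deposited, and a difference was called for 3.39% of all genes. The 30 were picked for large changes in the first comparison, which favours a called difference.

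The 250 bases upstream of the start are shown for 5 genes, 3 that changed in both comparisons and 2 that changed in the first and not in the second, as RefSeq gives them on GRCm38.p6. Windows run 5′ to 3′ along the gene, and capitals mark CG dinucleotides, the sites of DNA methylation, which are dense at many promoters bound by MLL complexes. Lrrc55 (chr2:85198751-85199000 on the minus strand) has 3 CG and Tceal6 (chrX:135210688-135210937 on the minus strand) has 4. Slitrk1 (chr14:108914240-108914489 on the minus strand) has 9, Eps8l2 (chr7:141338752-141339001 on the plus strand) has 14 and Rasgrf2 (chr13:92131829-92132078 on the minus strand) has 22.
Lrrc55: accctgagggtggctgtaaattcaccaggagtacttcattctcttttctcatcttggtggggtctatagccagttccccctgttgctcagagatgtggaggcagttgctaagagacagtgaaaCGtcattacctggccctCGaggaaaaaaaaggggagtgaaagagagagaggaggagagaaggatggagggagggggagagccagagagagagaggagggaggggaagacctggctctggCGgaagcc
Tceal6: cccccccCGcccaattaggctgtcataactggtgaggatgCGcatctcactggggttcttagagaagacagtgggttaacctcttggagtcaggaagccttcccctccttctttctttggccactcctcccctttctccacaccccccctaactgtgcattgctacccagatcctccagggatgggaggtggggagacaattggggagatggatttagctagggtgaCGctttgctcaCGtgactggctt
Slitrk1: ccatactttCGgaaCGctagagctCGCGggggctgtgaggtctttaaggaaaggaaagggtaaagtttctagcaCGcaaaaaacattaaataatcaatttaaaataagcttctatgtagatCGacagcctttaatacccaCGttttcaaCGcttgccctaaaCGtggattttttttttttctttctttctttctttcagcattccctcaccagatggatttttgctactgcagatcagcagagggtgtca
Eps8l2: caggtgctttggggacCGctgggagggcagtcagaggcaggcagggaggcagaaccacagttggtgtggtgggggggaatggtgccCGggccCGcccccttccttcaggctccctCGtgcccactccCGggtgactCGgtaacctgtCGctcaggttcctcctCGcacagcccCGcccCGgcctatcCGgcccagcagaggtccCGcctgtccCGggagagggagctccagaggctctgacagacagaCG
Rasgrf2: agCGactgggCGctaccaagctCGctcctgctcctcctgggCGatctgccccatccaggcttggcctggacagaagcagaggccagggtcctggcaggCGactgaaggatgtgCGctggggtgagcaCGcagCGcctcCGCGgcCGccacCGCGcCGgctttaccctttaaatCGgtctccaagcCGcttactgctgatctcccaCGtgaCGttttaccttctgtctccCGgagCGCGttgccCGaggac
The window was found for 15614 of the genes tested, and 93.9% of them hold a CG on either strand. The median number of CG was 11 over all genes, 17 in the genes that rose and 11 in those that fell. This followed the level of expression: over all genes the medians were 2, 8, 15 and 18 from the lowest to the highest of the 4 level bins. Within the highest bin the genes that rose and the genes that fell both had a median of 18, and in the third bin the medians were 16 and 13.

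Genes of the secretory pathway and its quality control rose more often than genes at large. Of 50 ER translocation and chaperone genes tested, 23 rose and 1 fell, with a median change of 0.59 as deposited and 0.37 after cyclic loess, against -0.23 and -0.05 over all genes (list medians below give both in this order); 49 of them lie in the highest of the 4 level bins, where 25.7% of genes rose. The signal peptidase subunit gene Spcs2 measured 10.51, 10.70 and 10.14 in RIP-Cre and 11.78, 11.53 and 11.74 in Men1 RIP-Cre islets, a rise of 1.23 ± 0.22. Spcs1 rose by 1.17 ± 0.21, and Derl3, which helps export misfolded proteins, by 0.77 ± 0.12, whereas Srp19 of the signal recognition particle fell by 0.40 ± 0.11. Without Men1 RIP-Cre replicate 3, 15 of these genes rose, and 1 was called higher with the array median as a covariate. In the second comparison none of the 50 rose or fell and their median was -0.02. On the Rbp2 RIP-Cre arrays, the controls of that comparison, Spcs2 measured 11.19 to 11.62, above all 3 RIP-Cre arrays. The transcription factors and targets of the stress response had another balance: of 18, 2 rose and 4 fell (median -0.27 and -0.21). The stress sensor Ern1 fell by 0.48 ± 0.09, the stress factors Ddit3 and Cebpb by 0.60 ± 0.15 and 0.63 ± 0.14, while the sensor Atf6 rose by 0.51 ± 0.13 and the amino acid transporter subunit Slc3a2 by 0.91 ± 0.15.

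Of 43 lysosomal genes, 29 rose and 2 fell, a share of risers above the 25.7% found in the highest level bin, in which 29 of the 43 lie. Their median change was 0.59 as deposited and 0.45 after cyclic loess, and 26 to 28 of them rose when any 1 array was left out, while 7 were called higher with the array median as a covariate. Ppt1, which removes fatty acids from proteins, went from 8.93, 8.60 and 8.45 to 10.18, 9.85 and 9.97, a rise of 1.34 ± 0.18. The membrane protein gene Lamp2 rose by 1.03 ± 0.15 and the protease gene Ctsd by 0.93 ± 0.14, while Tfeb and Tfe3, transcription factors that activate lysosomal genes, fell by 0.41 ± 0.11 and 0.30 ± 0.09. None of the 43 rose or fell in the second comparison, where the median was 0.04. Of 37 proteasome genes, 17 rose and 5 fell (median 0.42 and 0.27). The highest level bin holds 29 of the 37, and 1 was called higher with the array median as a covariate. The ATPase subunit Psmc6 rose by 0.98 ± 0.15, Psmb2 by 1.01 ± 0.19 and Psma1 by 0.84 ± 0.16. Those that fell included Psmb10 and Psme1, both induced by interferon, by 0.59 ± 0.13 and 0.46 ± 0.12, and Psmc3 by 0.36 ± 0.10. Without RIP-Cre replicate 3 the proteasome counts were 11 and 3, and 3 fell also without Men1 RIP-Cre replicate 1, Men1 RIP-Cre replicate 3 or RIP-Cre replicate 1.

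Genes of fuel metabolism rose more often than they fell. Of 32 genes of glucose entry and glycolysis, 14 rose and 1 fell (median 0.28 and 0.25). G6pc2, the islet glucose-6-phosphatase that opposes glucokinase, measured 11.61, 11.71 and 11.18 in RIP-Cre and 12.91, 12.79 and 12.85 in Men1 RIP-Cre islets, a rise of 1.35 ± 0.17 whose difference in the double knockout was called (limma adjusted p = 0.033). The mitochondrial citrate carrier Slc25a1 rose by 0.80 ± 0.13 and Pdha1 of pyruvate dehydrogenase by 0.71 ± 0.13. Of 20 genes of the TCA cycle, 8 rose and none fell (median 0.37 and 0.25), among them Dld, Idh3a and Sdhd at 0.66 ± 0.12, 0.67 ± 0.14 and 0.54 ± 0.11. Respiratory subunits were mixed with a surplus of risers: 10 of 35 in complex I rose and 2 fell (median 0.29 and 0.21), and 15 of 35 in complexes III to V rose and 1 fell (median 0.52 and 0.31). Ndufb6 rose by 1.46 ± 0.27, Atp5j by 1.32 ± 0.24 and Cox6c by 1.17 ± 0.21, while Ndufa7, Ndufb7 and Uqcr10 fell by 0.35 ± 0.09, 0.49 ± 0.14 and 0.40 ± 0.11. In the second comparison no gene of these 4 lists rose or fell. The highest level bin, where 25.7% of genes rose, holds 19 of the 32 glucose genes and 15 of the 20 TCA genes. It also holds 23 of 35 genes of complex I and 33 of 35 of complexes III to V. With the array median as a covariate 3 glucose genes were called higher and no TCA or respiratory gene was, while 1 TCA gene was called lower.

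Ribosomal protein genes moved in both directions. In the mitochondrial ribosome 14 of 75 rose and 8 fell, or 18.7% and 10.7% against 13.7% and 16.5% of all genes. The median was -0.04 as deposited and 0.08 after cyclic loess. Mrpl50 and Mrpl42 rose by 1.11 ± 0.18 and 1.09 ± 0.20, and Mrps12 and Mrpl24 fell by 0.78 ± 0.14 and 0.66 ± 0.12. Of 55 cytosolic ribosomal genes 5 rose and 7 fell (median 0.14 and -0.13), although 51 lie in the highest level bin. Rpl7a rose by 0.90 ± 0.15, with its other probe sets at 0.47 and -0.17, Rpl4 by 0.74 ± 0.16 and Rpl21 by 0.68 ± 0.16, and Rpl22 fell by 0.77 ± 0.16. Genes of this family have many processed copies, so signal may be shared with them. Without RIP-Cre replicate 3, 5 mitochondrial ribosomal genes fell, and 3 to 4 cytosolic ones did without Men1 RIP-Cre replicate 1, Men1 RIP-Cre replicate 3 or RIP-Cre replicate 1.

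Genes of lipid synthesis also rose more often than they fell. Of 20 genes of cholesterol synthesis 10 rose and none fell (median 0.56 and 0.50). Sc5d, a late enzyme of the pathway, went from 9.01, 9.18 and 9.08 to 9.71, 9.60 and 9.67, a rise of 0.57 ± 0.09, Nsdhl rose by 0.76 ± 0.15 and Insig1, which holds the sterol sensor in the ER, by 0.83 ± 0.16. The count was 6 without Men1 RIP-Cre replicate 3 or without RIP-Cre replicate 1. Of 29 genes of fatty acid and triglyceride synthesis 11 rose and 1 fell (median 0.13 and 0.22), and 11 rose whichever array was left out. Fads1, a fatty acid desaturase, rose by 1.17 ± 0.14, and the chain-elongating enzymes Elovl6 and Elovl4 by 1.37 ± 0.18 and 1.45 ± 0.19, and Pnpla3, a lipase-like enzyme of lipid droplets, fell by 0.60 ± 0.15. Elovl4 measured 7.20, 7.38 and 7.26 in RIP-Cre and 8.95, 8.60 and 8.65 in Men1 RIP-Cre islets.

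In the machinery of hormone storage and release the directions were mixed. Of 31 granin and prohormone processing genes 9 rose and 4 fell (median 0.16 and -0.09). The granin gene Scg2 rose by 1.01 ± 0.16, from 12.04, 11.85 and 11.89 to 12.91, 12.92 and 12.97, and the zinc transporter of insulin granules, Slc30a8, by 0.81 ± 0.12, while Vgf and the gastrin gene Gast fell by 0.79 ± 0.15 and 0.53 ± 0.13. Of 33 exocytosis genes 10 rose and 7 fell (median 0.04 and 0.07). The SNARE genes Vamp3 and Snap25 rose by 1.14 ± 0.18 and 1.10 ± 0.18, and Stx1a and Stx4a fell by 0.79 ± 0.14 and 0.89 ± 0.15. The priming factors went apart, with Cadps up by 0.50 ± 0.10 and Cadps2 down by 0.83 ± 0.12. For the granin list 5 rose without Men1 RIP-Cre replicate 1, 2 fell without Men1 RIP-Cre replicate 1 or 3, and 1 fell without Men1 RIP-Cre replicate 2 or RIP-Cre replicate 3. For exocytosis 5 rose without RIP-Cre replicate 3 and 6 without Men1 RIP-Cre replicate 3.

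**Figure D5:**
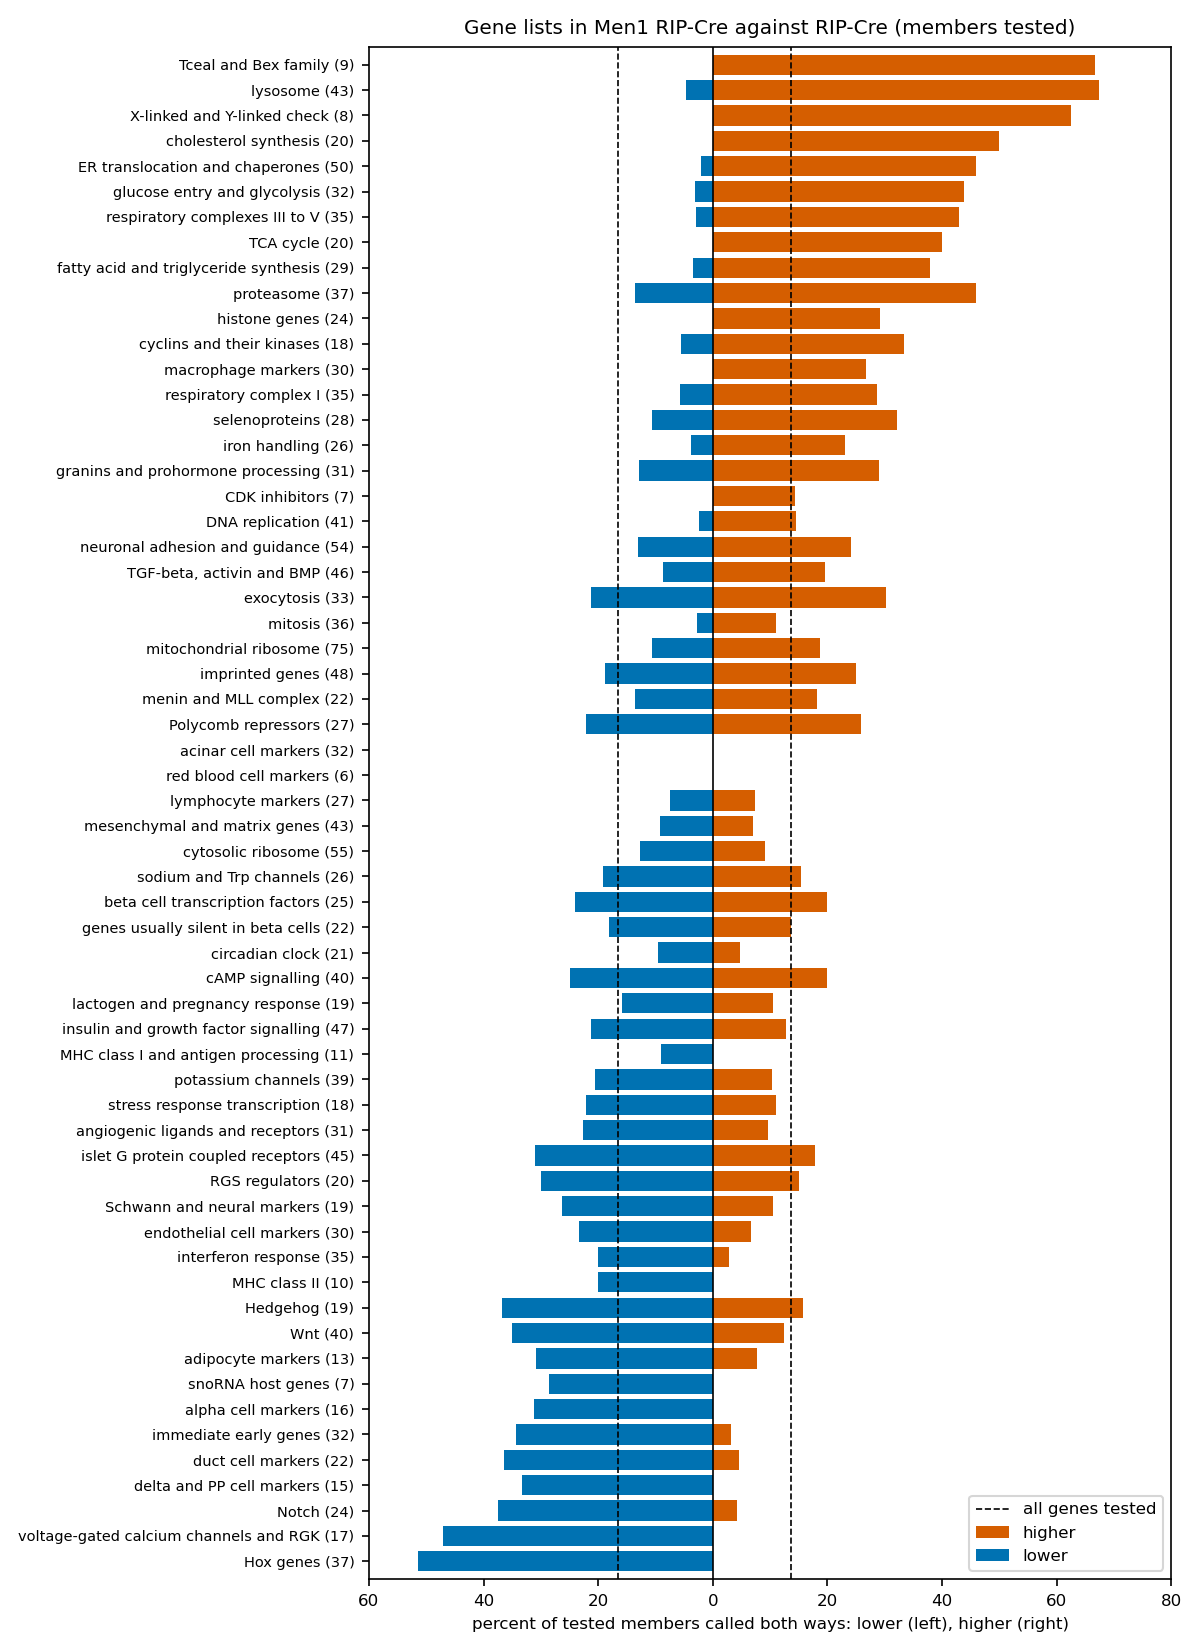
Percent of the tested members of each of 60 gene lists (y axis, members tested in parentheses) that rose (right) or fell (left) by both normalizations in Men1 RIP-Cre against RIP-Cre islets. Dashed lines mark the shares over all 19938 genes, 13.7% and 16.5%; the lysosome list reaches 29 risers of 43 and the Hox list 19 fallers of 37.

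Of the ion channel lists, the calcium channels had the largest share of falls. No voltage-gated calcium channel or RGK gene of 17 rose and 8 fell (median -0.48 and -0.32), 7 to 9 when any 1 array was left out. Gem, described above, is the RGK member; the T-type channel gene Cacna1h went from 8.42, 7.86 and 8.47 to 7.13, 7.09 and 7.29, a fall of 1.08 ± 0.13, and the auxiliary subunit Cacnb2 fell by 0.73 ± 0.12. Of 39 potassium channel genes 4 rose and 8 fell (median -0.18 and -0.03). Beside Lrrc55, Kcnmb2, another auxiliary subunit of large-conductance channels, rose by 0.86 ± 0.15 and Kcng3 by 0.84 ± 0.16, and Kcnc4, Kcnk3 and Kcnn4 fell by 0.81 ± 0.14, 0.59 ± 0.12 and 0.61 ± 0.14. Without RIP-Cre replicate 3, 4 potassium channel genes rose and 3 fell, and 5 without each of the Men1 RIP-Cre arrays. Of 26 sodium and Trp channel genes 4 rose and 5 fell (median -0.22 and -0.04), with 2 and 3 without RIP-Cre replicate 3 or without Men1 RIP-Cre replicate 2. Trpc4 rose by 0.94 ± 0.13 and Trpm7 by 0.63 ± 0.12, beside the falls of Scn3a and Trpm3.

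Receptors that set insulin secretion changed in both directions. Of 45 islet G protein coupled receptor genes 8 rose and 14 fell (median -0.30 and -0.20). Glp1r, the receptor of the incretin GLP-1, measured 12.07, 12.28 and 11.48 in RIP-Cre and 13.30, 13.15 and 13.26 in Men1 RIP-Cre islets, a rise of 1.29 ± 0.17. The fatty acid receptor gene Ffar3 rose by 1.11 ± 0.19 and Gpr158 by 0.88 ± 0.12. Gpr119, a lipid receptor that raises insulin secretion, fell by 1.23 ± 0.15 from 8.42, 8.29 and 8.31 to 7.19, 6.96 and 7.18, the glucagon receptor gene Gcgr by 0.82 ± 0.14 and the somatostatin receptor gene Sstr2 by 0.80 ± 0.12. In the second comparison Ffar3 was at 0.76, Gpr119 at -0.73 and Gcgr at -0.92, each called there too. The count of receptors that fell was 7 without RIP-Cre replicate 3, 8 without RIP-Cre replicate 1 and 8 without Men1 RIP-Cre replicate 1.

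Downstream of these receptors, 3 of 20 RGS genes, which switch G proteins off, rose and 6 fell (median -0.51 and -0.27), and 8 of 40 cAMP signalling genes rose and 10 fell (median -0.16 and -0.13). Rgs9, Rgs3 and Rgs16 fell by 0.92 ± 0.16, 0.74 ± 0.14 and 0.60 ± 0.12, and Rgs5, also a pericyte gene, rose by 0.91 ± 0.17 and Rgs7bp by 0.46 ± 0.12. The phosphodiesterase gene Pde4d, which breaks down cAMP, went from 9.59, 9.12 and 9.47 to 8.05, 8.44 and 8.28, a fall of 1.14 ± 0.13, with its other probe sets at 0.31 and -0.41, while Pde7a rose by 0.47 ± 0.09. The regulatory subunits of protein kinase A, Prkar1a and Prkar2b, rose by 0.90 ± 0.16 and 0.98 ± 0.18, and the anchoring protein gene Akap6 fell by 0.77 ± 0.14. The cAMP genes that fell numbered 5 without Men1 RIP-Cre replicate 1, 6 without Men1 RIP-Cre replicate 3 and 6 without RIP-Cre replicate 3.

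Developmental signalling pathways differed in balance. Of 46 genes of TGF-beta, activin and BMP signalling 9 rose and 4 fell (median -0.18 and -0.02). The receptor gene Tgfbr1 measured 9.06, 8.97 and 8.78 in RIP-Cre and at least 9.98 on all 3 Men1 RIP-Cre arrays, a rise of 1.05 ± 0.12, and Smad5 and Bmpr2 rose by 0.73 ± 0.12 and 0.67 ± 0.15, whereas the activin receptor gene Acvr2b, the ligand gene Gdf10 and Smad1 fell by 0.55 ± 0.13, 0.92 ± 0.21 and 0.42 ± 0.09. Hedgehog genes fell in 7 of 19 cases and rose in 3 (median -0.50 and -0.21), and 4 fell without Men1 RIP-Cre replicate 2. The target and effector Gli1 fell by 0.57 ± 0.12, the coreceptor gene Gas1 by 0.77 ± 0.15 and Disp1 by 0.75 ± 0.13, while Disp2 rose by 0.79 ± 0.12, the receptor gene Ptch1 by 0.44 ± 0.12 and Prmt5, a methyltransferase that binds menin, by 0.46 ± 0.10. Of 40 Wnt genes 5 rose and 14 fell (median -0.42 and -0.19), 6 without RIP-Cre replicate 3. The receptor genes Fzd7 and Fzd3 rose by 0.75 ± 0.11 and 0.79 ± 0.19, the kinase gene Gsk3b by 0.74 ± 0.11, and the ligand gene Wnt4 fell by 0.73 ± 0.12 with its other probe set at -0.08, Tcf7l1 by 0.78 ± 0.11 and Nkd2 by 0.63 ± 0.13; 3 rose without Men1 RIP-Cre replicate 1, Men1 RIP-Cre replicate 2 or RIP-Cre replicate 2. In the Notch pathway 1 of 24 rose and 9 fell (median -0.41 and -0.22), 6 to 9 whichever array was left out. Notch1 fell by 0.65 ± 0.10, its target gene Hes5 by 0.79 ± 0.15 and the inhibitor Numb by 0.42 ± 0.09, and Rbpj, the DNA-binding partner of Notch, rose by 0.30 ± 0.09 on 1 probe set, with the other at -0.46.

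Of 47 insulin and growth factor signalling genes 6 rose and 10 fell (median -0.19 and -0.20), with 4 that fell without RIP-Cre replicate 3 or without Men1 RIP-Cre replicate 2. Beside Igf2 and Grb10, the IGF-binding protein gene Igfbp5 rose by 0.77 ± 0.09, from 8.62, 8.45 and 8.41 to 9.32, 9.23 and 9.25, and rose by 0.58 in the second comparison. The receptor that clears IGF2, Igf2r, rose by 0.38 ± 0.08 and the hepatocyte growth factor gene Hgf fell by 0.60 ± 0.13. Of 31 angiogenic ligand and receptor genes 3 rose and 7 fell (median -0.25 and -0.14). Hif1a, the oxygen-regulated transcription factor, rose by 0.81 ± 0.15, and the ligand genes Edn3 and Angpt1 fell by 0.86 ± 0.16 and 0.83 ± 0.17. Without RIP-Cre replicate 3 the angiogenic counts were 1 and 4, without Men1 RIP-Cre replicate 2 there was 1 riser, and without Men1 RIP-Cre replicate 1 there were 4 fallers.

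Among the chromatin regulators around menin, 4 of 22 MLL complex genes rose and 3 fell (median 0.16 and 0.10), Men1 included. The shared subunits Hcfc1 and Wdr82 rose by 0.58 ± 0.12 and 0.43 ± 0.11. Counts without Men1 RIP-Cre replicate 1 were 2 and 1. The methyltransferase genes Kmt2d and Setd1b were at -0.31 ± 0.11 and -0.35 ± 0.10, called by both normalizations but not without every array, and the other probe set of Kmt2d was at 0.49. Jund, a transcription factor that binds menin, was at 0.54 ± 0.15 as deposited and was not called after cyclic loess. Polycomb repressors, which oppose MLL complexes at many genes, rose in 7 of 27 cases and fell in 6 (median -0.15 and -0.11). Pcgf6 measured 8.47, 8.43 and 8.23 in RIP-Cre and 9.52, 9.40 and 9.26 in Men1 RIP-Cre islets, a rise of 1.02 ± 0.11, and rose by 0.53 in the second comparison. The histone-binding subunits Rbbp7 and Rbbp4 rose by 0.78 ± 0.14 and 0.63 ± 0.14, and Ring1 fell by 0.99 ± 0.12, Cbx2 by 0.52 ± 0.13 and Aebp2 by 0.47 ± 0.08.

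Hox genes, kept by MLL complexes in development, had the largest share of falls of any list, 19 of 37 with none higher (median -0.55 as deposited and -0.30 after cyclic loess). That count rested on single arrays: 5 fell without RIP-Cre replicate 3 and 5 without Men1 RIP-Cre replicate 2. Hoxa5 measured 7.54, 7.46 and 8.14 in RIP-Cre and 7.13, 6.99 and 7.04 in Men1 RIP-Cre islets, a fall of 0.66 ± 0.14. Hoxb13 and Hoxc5 fell by 0.62 ± 0.14 and 0.68 ± 0.15. Of the 37 genes 12 lie in the lowest level bin, and none rose or fell in the second comparison, where the median was -0.07. Of 24 histone genes 7 rose and none fell (median 0.17 and 0.23), among them the variants Macroh2a2 by 1.78 ± 0.29 and Macroh2a1 by 0.76 ± 0.15, and H4c4 by 0.98 ± 0.19. Replication-dependent histone messages usually lack a poly(A) tail and belong to clustered families of near-identical copies.

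Cell cycle lists differed in their counts. Of 7 CDK inhibitor genes, several of them known as menin targets in islets, 1 was called both ways (median -0.19 and -0.11): Cdkn2c, which encodes p18, at 0.45 ± 0.15, from 6.94, 7.44 and 6.87 to 7.43, 7.52 and 7.66, groups that overlap, and its call was lost when single arrays were left out. Of 18 cyclins and their kinases 6 rose and 1 fell (median 0.19 and 0.22). The mediator cyclin Ccnc rose by 1.44 ± 0.22, Ccni by 1.35 ± 0.22 and Ccng1 by 0.81 ± 0.16. Of the cyclins that drive cell division phases, Ccne2 was at 0.45, called both ways and named after its value was seen, and Ccnd1 was at -0.65 ± 0.22, called both ways but not without every array. Of 41 DNA replication genes 6 rose and 1 fell (median -0.01 and 0.22). The sliding clamp gene Pcna rose by 0.98 ± 0.18, from 8.73, 8.63 and 8.48 to 9.61, 9.45 and 9.71, Rrm1 of ribonucleotide reductase by 0.76 ± 0.13 and the helicase subunit Mcm4 by 0.48 ± 0.12. Of 36 mitosis genes 4 rose and 1 fell (median -0.05 and 0.23), with between 1 riser (without Men1 RIP-Cre replicate 3) and 10 (without RIP-Cre replicate 2), 2 without RIP-Cre replicate 3 and 3 fallers without RIP-Cre replicate 1. The checkpoint gene Mad2l1 rose by 0.69 ± 0.14 and by 0.63 in the second comparison. Spc25, a kinetochore gene, fell by 1.20 ± 0.23. The medians of the replication and mitosis lists in the second comparison were 0.20 and 0.31, against -0.01 over all genes.

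Transcription factors that define beta cells were split, with 5 of 25 higher and 6 lower (median 0.04 and -0.20). Insm1 measured 10.31, 10.30 and 9.94 in RIP-Cre and 11.24, 11.07 and 11.21 in Men1 RIP-Cre islets, a rise of 0.99 ± 0.16, and Neurod1 and Foxo1 rose by 0.75 ± 0.14 and 0.44 ± 0.10. Foxa2 and Prox1 fell by 0.48 ± 0.11 and 0.50 ± 0.12, and Meis2 fell by 0.54 ± 0.11, and by 0.56 in the second comparison. Of 22 genes usually silent in beta cells 3 rose and 4 fell (median -0.35 and -0.18). Lmo4 rose by 0.67 ± 0.10, and by 0.61 in the second comparison, and Yap1, Cxcl12 and Acot7 fell by 0.71 ± 0.15, 0.86 ± 0.21 and 0.49 ± 0.13. In that list 1 gene rose without Men1 RIP-Cre replicate 1 or RIP-Cre replicate 2, and 2 fell without RIP-Cre replicate 3.

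Imprinted genes, expressed from 1 parental copy, included some of the larger changes, although 12 of 48 rose and 9 fell (median -0.18 and -0.15). Plagl1, a zinc finger gene that controls other imprinted genes, measured 8.59, 8.55 and 8.50 in RIP-Cre and 9.96, 11.44 and 9.66 in Men1 RIP-Cre islets, a rise of 1.81 ± 0.28 in which replicate 2 stands highest. The growth suppressor gene Ndn rose by 1.48 ± 0.18, Peg10 fell by 0.66 ± 0.12 and Rtl1 by 0.77 ± 0.17, beside Igf2, Nnat and Grb10 above. Of the 54 neuronal adhesion and guidance genes 13 rose and 7 fell (median -0.09 and 0.08). Beside Slitrk6 and Slitrk1, the ephrin receptor gene Epha5 rose by 0.92 ± 0.11 and by 0.56 in the second comparison, and the guidance ligand genes Slit3 and Ntn1 fell by 0.48 ± 0.09 and 0.79 ± 0.15 and Lrrtm3 by 0.59 ± 0.10. The neuronal fallers numbered 3 without Men1 RIP-Cre replicate 1 or 3 and 4 without Men1 RIP-Cre replicate 2 or RIP-Cre replicate 3. In the Tceal and Bex family 6 of 9 rose and none fell (median 0.57 and 0.54), 4 to 6 when any 1 array was left out. Tceal8 and Tceal1 rose by 1.04 ± 0.15 and 1.20 ± 0.23 beside Tceal6, and in the second comparison 1 of the 9, Tceal6, was called and the median was 0.04.

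Genes of smaller functional groups were counted too. Of 28 selenoprotein genes 9 rose and 3 fell (median 0.04 and 0.16): Selenop, Selenow and Selenot rose by 1.38 ± 0.21, 0.76 ± 0.12 and 1.47 ± 0.23, and Secisbp2, which lets ribosomes read selenocysteine, fell by 0.67 ± 0.13. The fallers were 1 without RIP-Cre replicate 3, Men1 RIP-Cre replicate 2 or Men1 RIP-Cre replicate 3. Of 26 iron handling genes 6 rose and 1 fell (median 0.08 and 0.13). Slc40a1, the iron exporter, rose by 1.56 ± 0.29, the transferrin receptor gene Tfrc by 1.51 ± 0.32 and Fbxl5, an iron sensor, by 0.66 ± 0.10, and Steap1 fell by 0.59 ± 0.12. Tfrc measured 7.30, 8.07 and 7.91 in RIP-Cre and 9.34, 9.13 and 9.35 in Men1 RIP-Cre islets. Of 7 snoRNA host genes 2 fell (median -0.51 and -0.78), Snhg11 and Snhg15, the latter by 0.93 ± 0.23. Clock genes gave 1 riser and 2 fallers of 21 (median -0.13 and -0.08): Clock rose by 0.42 ± 0.11 and the repressors Per2 and Cry2 fell by 0.98 ± 0.14 and 0.53 ± 0.15. Of 19 genes that respond to lactogens in pregnancy (median -0.17 and -0.07) 2 rose, among them the growth hormone receptor gene Ghr by 0.49 ± 0.12, and 3 fell, among them Wipi1 by 0.34 ± 0.10, and 1 fell without Men1 RIP-Cre replicate 2.

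Immediate early genes, which respond within minutes to stimulation and to islet handling, fell in 11 of 32 cases and rose in 1 (median -0.39 and -0.27). Fosl2 fell by 0.68 ± 0.15, Ccn2 by 0.66 ± 0.12 and Nr4a3 by 0.60 ± 0.13, and Klf6 rose by 0.46 ± 0.12. The fallers numbered 4 without RIP-Cre replicate 3 and 7 without each Men1 RIP-Cre array, and the median in the second comparison was -0.25, with none that rose or fell.

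Immune genes showed few rises outside macrophages. Of 10 MHC class II genes 2 fell (median -0.35 and -0.13), H2-Eb1 and the peptide loader H2-DMa, the latter by 0.71 ± 0.17, and Cd74, the invariant chain, was at 0.89 ± 0.35 as deposited and not called after cyclic loess. Of 11 MHC class I and antigen processing genes 1 fell (median -0.20 and -0.23), the activator Nlrc5, by 0.59 ± 0.15, with its 18 other probe sets between -1.01 and 0.10. Interferon response genes fell in 7 of 35 cases and rose in 1 (median -0.28 and -0.10). The transcription factor gene Irf1 measured 9.49, 9.27 and 9.67 in RIP-Cre and 8.44, 8.68 and 8.59 in Men1 RIP-Cre islets, a fall of 0.91 ± 0.11, Irgm1 fell by 0.71 ± 0.09, and Parp14 fell by 1.01 ± 0.12 and by 0.57 in the second comparison. Of 30 macrophage genes 8 rose and none fell (median 0.05 and 0.34). Mpeg1, a pore protein of phagocytes, rose by 1.10 ± 0.17 from 7.45, 7.38 and 7.35 to 8.39, 8.61 and 8.47, Cybb of the phagocyte oxidase by 0.79 ± 0.19 and Ms4a7 by 0.59 ± 0.12. The mean over the 5 macrophage markers Cd68, Adgre1, Csf1r, C1qa and C1qb was 8.07 to 8.35 in Men1 RIP-Cre and 7.93 to 8.05 in RIP-Cre islets, and of these only C1qb passed both normalizations. Of 27 lymphocyte genes 2 rose and 2 fell (median -0.32 and -0.03), among them Klrb1c at 0.61 ± 0.17 and Ighm, down by 0.60 ± 0.14. Cd79a was called both ways at 1.26 ± 0.47, from 6.06, 6.19 and 6.47 to 8.02, 7.58 and 6.89. The marker Ms4a1 was at -0.31, not called. No lymphocyte gene fell without Men1 RIP-Cre replicate 1 or RIP-Cre replicate 3.

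Markers of islet cells were present in both groups, and their balance differed. The mean over 8 beta cell markers (Ins2, Iapp, Slc2a2, Pdx1, Mafa, Ucn3, G6pc2 and Slc30a8) was 12.63 to 12.70 in Men1 RIP-Cre and 11.74 to 12.29 in RIP-Cre islets, and 5 of the 8 rose: the glucose transporter gene Slc2a2 by 0.95, Pdx1 by 0.67, Ucn3 by 0.89, and G6pc2 and Slc30a8. Insulin itself, Ins2, was at 13.54, 13.62 and 13.59 in RIP-Cre and 13.74, 13.66 and 13.70 in Men1 RIP-Cre islets and did not pass: its difference was 0.12 ± 0.07 as deposited and -0.31 after cyclic loess. Iapp was at 0.34 as deposited and -0.09 after cyclic loess, and Mafa at -0.15 and -0.39, and neither passed both normalizations. The marker means here are of deposited values. The median change of the 8 beta cell markers was 0.74 as deposited and 0.41 after cyclic loess. Alpha cell markers went the other way: the mean over Gcg, Irx1, Irx2 and Ttr was 10.02 to 10.16 against 10.40 to 11.02, and of 16 alpha cell genes 5 fell and none rose (median -0.28 and -0.37). Irx1 fell by 1.06 ± 0.14, Irx2 by 1.07 and Etv1 by 1.41 ± 0.20, whereas the glucagon gene Gcg was at -0.14 ± 0.17 as deposited, not called, and at -0.56 after cyclic loess. Of 15 delta and PP cell genes 5 fell and none rose (median -0.58 and -0.47). The PP hormone genes Ppy and Pyy were not among the fallers. They were at 0.16 and -0.43 as deposited and at -0.27 and -0.76 after cyclic loess, none called. The mean over these 2 was 12.57 to 12.66 in Men1 RIP-Cre and 12.22 to 13.34 in RIP-Cre islets. Hhex, the transcription factor of delta cells, fell by 0.96 ± 0.16, the leptin receptor gene Lepr by 0.79 ± 0.14 and Cd9 by 0.75 ± 0.14. The mean over the delta markers Sst, Hhex, Rbp4 and Ghsr was 9.19 to 9.57 against 9.68 to 10.52, and the somatostatin gene Sst was at -0.32 ± 0.20 as deposited, not called, and at -0.75 after cyclic loess. Their part in the falls of genes shared between these cells, such as Sstr2 and Gcgr, was not tested.

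Some markers of other cells that an islet preparation can hold differed between the groups as well. Of 22 duct cell genes 1 rose and 8 fell (median -0.46 and -0.27), 4 without RIP-Cre replicate 1 and 5 without Men1 RIP-Cre replicate 2, Men1 RIP-Cre replicate 3 or RIP-Cre replicate 3. The claudin gene Cldn4 fell by 1.28 ± 0.21, from 9.02, 8.74 and 9.44 to 7.75, 7.86 and 7.76, and Onecut2 by 0.90 ± 0.16, beside Prom1, and Epcam rose by 0.71 ± 0.19. The mean over the duct markers Krt19, Sox9, Cftr and Muc1 was 7.02 to 7.15 against 7.4 to 7.81, with Cftr alone called. Of 19 Schwann and neural genes 2 rose and 5 fell (median -0.39 and -0.12): Sox10, Cdh19 and Sox2 fell by 0.63 ± 0.13, 1.25 ± 0.23 and 0.65 ± 0.13, while Th and Ddc, enzymes of dopamine synthesis that beta cells also express, rose by 1.00 ± 0.26 and 1.14 ± 0.25. The mean over Sox10, Cdh19 and S100b was 7.42 to 7.48 against 8.06 to 8.54. Endothelial genes gave 2 risers and 7 fallers of 30 (median -0.25 and -0.13), with 3 fallers without Men1 RIP-Cre replicate 1 and 11 without RIP-Cre replicate 2. Vwf and Egfl7 fell by 0.81 ± 0.16 and 0.82 ± 0.18 and Lyve1 rose by 0.57 ± 0.16, and the mean over 5 endothelial markers was 9.42 to 9.57 against 9.43 to 9.73.

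Mesenchymal and matrix genes gave 3 risers and 4 fallers of 43 (median -0.16 and 0.01), with 1 and 0 without RIP-Cre replicate 3, 1 riser without Men1 RIP-Cre replicate 1 or RIP-Cre replicate 2 and 2 fallers without Men1 RIP-Cre replicate 2 or 3. Fbln5 and Lamb2 fell by 0.63 ± 0.15 and 0.44 ± 0.11, and the mean over Col1a1, Col3a1, Pdgfrb, Acta2 and Dcn was 8.25 to 8.37 against 8.11 to 8.59. Of 13 adipocyte genes 1 rose and 4 fell (median -0.45 and -0.18): the fatty acid carrier gene Cd36 rose by 1.02 ± 0.21, and Pparg and Plin1 fell by 0.59 ± 0.10 and 0.56 ± 0.12, with 1 faller without Men1 RIP-Cre replicate 1 and 2 without Men1 RIP-Cre replicate 3 or RIP-Cre replicate 3. Neither the 32 acinar genes (median 0.02 and 0.11) nor the 6 red blood cell genes (median -0.43 and -0.14) held one that passed both normalizations. The mean over the acinar markers Cpa1, Ctrb1, Cela2a and Prss2 was 9.18 to 11.44 in Men1 RIP-Cre and 8.59 to 11.38 in RIP-Cre islets, so acinar RNA varied between arrays of each group. The part of duct, Schwann, macrophage and acinar cells in the changes of genes they share with beta cells was not tested.

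Genes near Men1 on chromosome 19 were called at a share near that of all genes. Of the 50 tested neighbours, 25 on each side, 4 rose and 13 fell, or 34.0% against 30.1% of all genes, and none changed in both comparisons. Rasgrp2, an exchange factor of blood and islet cells, fell by 1.00 ± 0.19, and Cdc42bpg, Catsperz, Slc22a20 and Snx15 fell by between 0.30 and 0.74. Mrpl49, Trmt112, Ppp1r14b and Otub1 rose by between 0.42 and 0.61. Among 8 X-linked and Y-linked genes 5 rose and none fell (median 0.43 and 0.39). The Y-linked Uty rose by 0.88 ± 0.15 and the X-linked Ddx3x and Eif2s3x by 0.85 ± 0.15 and 0.84 ± 0.20. Of all 742 X-linked genes tested 20.2% rose and 8.76% fell, against 13.7% and 16.5% of all genes. On the Y chromosome 2 of 9 rose and 1 fell. The sample titles do not give the sex of the mice.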

How the data were processed

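Total RNA of untreated mouse islets was purified on Qiagen RNeasy columns and labelled for whole-transcript GeneChip arrays, per the labels' protocols. The values used are the log2 intensities deposited by the authors in the series matrix, to 2 decimals; the normalization that made them is not given in the sources used here. Arrays were grouped by their titles. Of 35512 probe sets, 21789 name 1 gene in the platform annotation, 1621 name several and 12102 are not listed there; each gene was represented by its brightest probe set (by the mean of the 17 arrays), which left 19938 genes. limma 3.58.1 (R 4.3.3; lmFit and eBayes) was fitted to all 17 arrays in 5 groups, on the deposited values and after cyclic loess, with Benjamini-Hochberg adjustment over all genes and a threshold of 0.05. The script was tested on simulated data. For arrays, their number limits the precision.

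The 15 highest and 15 lowest genes were named among those called both ways without overlap of the 2 groups, leaving out predicted, olfactory, vomeronasal and small RNA genes; the 10 strongest each way were named among those that changed in both comparisons, ranked by the smaller change, and up to 3 each way of each list by limma's moderated statistic. Narrowing list genes to those that stayed called as deposited without any 1 array was chosen after the values were seen. The members and the 60 lists, of which 1727 entries were tested, were chosen with earlier results of these data known. Promoter windows and gene names come from RefSeq tables (GRCm38.p6). Alternatives were cyclic loess, quantile normalization, the array median as a covariate, other probe set rules, a low-level filter, wt controls, only the 6 arrays, a replicate block and leaving out each array.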

Additional observations from a re-analysis of the deposited data

Results flagged for a closer look

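Of 266 genes named above, 53 had a called difference between the 2 measurements of Men1 loss as deposited (limma, adjusted p under 0.05 for the difference itself). Over all genes tested the share was 3.39%. The 266 genes were named for their change in the first comparison, so a smaller change in the second is partly built into the choice. Values in parentheses are the change in the double knockout against Rbp2 RIP-Cre minus that in Men1 RIP-Cre against RIP-Cre, on the log2 scale. Genes that rose with Men1 loss and had a negative difference were, among membrane, secreted and adhesion genes, Lrrc55 (-2.58), Slitrk6 (-1.52), Defb1 (-1.46), Fam107a (-1.54), Fam171b (-1.34), Cd63 (-1.82) and Cst3 (-1.57). From the lysosome and the secretory pathway they were Ppt1 (-0.96), Ctsd (-0.89), Lamp2 (-0.87), Spcs1 (-1.08), Scg2 (-0.91), Psmc6 (-0.94) and Slc3a2 (-0.98). For metabolism and fatty acid synthesis they were G6pc2 (-1.10), Elovl4 (-1.17), Elovl6 (-0.97), Fads1 (-0.90), Selenop (-1.17) and Fbxl5 (-0.54). Among regulators, signalling and other genes they were Ccnc (-1.14), Ddx3x (-0.74), Igf2r (-0.47), Ndn (-0.93), Prkar1a (-0.95), Rbbp7 (-0.68), Rgs5 (-0.90), Rrm1 (-0.64), Tceal8 (-0.91), Tgfbr1 (-0.82) and Usp51 (-1.27). Jund (-0.80) was higher as deposited and not called after cyclic loess. A negative difference does not mean a low level in the double knockout: on the Rbp2 RIP-Cre arrays, the controls of the second comparison, Defb1 was already 1.25 above RIP-Cre (limma adjusted p = 0.00996), Cd63 1.13 (0.0229), Slitrk6 0.99 (0.0334) and Cst3 0.84 (0.0438), and in the double knockout Defb1 and Slitrk6 were both 2.07 above RIP-Cre. Genes that fell and had a positive difference were, among surface, channel and signalling genes, Eps8l2 (1.85), Prom1 (1.92), Gem (1.89), H2-Eb1 (2.91), H2-DMa (0.90), Pik3c2g (1.02), Scn3a (0.92), Trpm3 (0.78), Cacna1h (0.68), Rgs9 (0.91), Apela (1.60) and Tsga10 (1.13). The others that fell were Aebp2 (0.43), Hes5 (0.73), Irf1 (0.88), Irx1 (0.72), Notch1 (0.54), Peg10 (0.69), Per2 (0.84), Ring1 (0.90) and Spc25 (1.62).

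1 array stood apart from its group: Nnat measured 9.55 on 1 of the 4 Rbp2 RIP-Cre arrays and 8.90 to 9.0 on the other 3, a gap beyond Dixon's 95% limit. It is 1 of 42 groups tested, and chance gives about 1 in 20.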

How the results depend on the processing

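With the array median as a covariate 894 genes were called as deposited, 462 higher and 432 lower. Cyclic loess gave 3671 lower genes against 7534. All probe sets of the table in place of 1 per gene gave 16809 calls among 35512 probe sets, 5991 of them higher. With 1 per gene there were 10660 calls among 19938 genes. Quantile normalization, variances that follow the intensity, the mean of a gene's probe sets, the low-level filter, wt or pooled controls and only the 6 arrays kept the count of calls within 1.5 times, between 8293 and 12715. Leaving out 1 array gave 6174 to 11006 calls (2297 to 3097 higher, 3877 to 7909 lower), 3946 to 5671 by both normalizations (2090 to 2591 higher, 1856 to 3080 lower), and 125 to 187 genes that changed in both comparisons; the lowest counts of calls, 6174 and 3946, came without RIP-Cre replicate 3. Of the 266 genes named, 2 changed sign under some setting: with the mean of all probe sets Kmt2d was at 0.09 and Rbpj at -0.078. With the array median as a covariate 156 of the 266 were no longer called. The causes were not tested.

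Arrays of the 2 groups share replicate numbers. Across genes, the deviations of same-numbered arrays from their group means correlated with r = -0.0725, 0.00448 and 0.0662. Arrays of different numbers gave r from -0.0932 to 0.12. With 3 arrays per group these values cannot tell whether the numbers pair the arrays. With the replicate number as a block 9861 genes were called as deposited, 2725 higher and 7136 lower, and 4904 by both normalizations, 2336 higher and 2568 lower.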
